A study of Mus musculus with 2 samples.

Results

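CD8 T cells were taken from 2 single-cell libraries of mouse whole lung by their transcripts. A cell barcode was kept when it held at least 200 genes and drew at most 15% of its UMIs (unique molecular identifiers, each standing for 1 captured transcript) from mitochondrial genes. A kept barcode was called a CD8 T cell when at least 2 of the 4 T cell receptor complex genes Cd3d, Cd3e, Cd3g and Trac had a UMI and Cd8a and Cd8b1 together had at least 1. It also needed 0 UMIs of Cd4, of Foxp3 (regulatory T cells), of Cd79a (B cells) and of Marco (alveolar macrophages). Members were thus chosen by their UMIs of these genes. The rule found 155 cells among 4688 kept barcodes, 47 in the library titled injured and 108 in the library titled control.

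CD8 T cells carry the CD8 coreceptor, a dimer of the products of Cd8a and Cd8b1, and recognise peptides held by MHC class I molecules. Naive cells recirculate through lymph nodes under the control of Ccr7 and S1pr1 and keep the transcription factors Lef1 and Tcf7. After antigen or cytokine exposure, effector and memory cells switch on chemokines such as Ccl5 and granule genes such as Nkg7 and the granzymes, and in the lung some stay as resident cells marked by Cxcr6, Itgae and Cd69.

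The mice were C57BL/6 animals with the I73T mutation of surfactant protein C (SP-C), a protein made by alveolar type 2 cells. Both libraries came from mutant mice, and no library of mice without the mutation was analysed here. In this line 1 oral gavage of tamoxifen at 175 mg/kg in corn oil cuts out a neomycin cassette and raises the mutant protein, and the injured state was sampled 14 days after injury. Lungs were lavaged and perfused, which washes out airspace and blood cells, before digestion with collagenase, and red cells were lysed. Libraries used 10x 3′ v3 chemistry. Gavage with corn oil alone is also mentioned, without naming a group. The titles and the treatment labels disagree, because untreated is the label of the injured library and tamoxifen treatment that of the control library. Groups follow the titles, so each direction below is between libraries as titled. Age and the number of animals per library were not stated, and with 1 library per group no p-value was computed and library and condition cannot be told apart.

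The CD8 T cells held 275785 UMIs in the injured library and 730421 in the control library. The median cell had 5199 UMIs and 1838 genes in the injured library (range 3043 to 23655 UMIs) and 6941 UMIs and 2036.5 genes in the control library (range 593 to 13655). A doublet caller scored 2 members in each library. Quality differed: the median mitochondrial share was 7.74% against 5.47%, and ribosomal protein genes took 30.0% against 36.9% of UMIs. The libraries shared 1 barcode over all barcodes and 0 among the CD8 T cells. Each value below is a count summed over cells, in CPM (the UMIs of a gene scaled to the usual common total) with an exact 95% interval where given, and intervals cover counting error only.

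The label was set against markers, as far as the choice allows. The 4 markers Cd3e, Cd8a, Cd8b1 and Trac, all used by the rule, summed to 2016 and 2125 CPM in injured and control members, and to 71.9 and 183 CPM over all kept barcodes. Cd4 was 0 by the rule, the natural killer receptors Ncr1 and Klra8 were at 0 in both libraries, and so were the B cell gene Ebf1 and the dendritic cell genes Xcr1 and Clec9a. Other markers of these kinds had UMIs: 4 of 6 natural killer markers in each library, 3 and 4 of 6 B cell markers and 2 and 3 of 5 dendritic cell markers. Of 7 gamma delta T cell markers found in the files, 3 had any UMI in each library, with a summed level of 25.4 and 4.11 CPM. Summed markers of innate-like T cells were at 32.6 and 12.3 CPM, of type 2 innate lymphoid cells at 65.3 and 65.7, of CD4 T cells at 185 and 111, of B cells at 163 and 298 and of type 1 dendritic cells at 236 and 251. Over all kept barcodes gamma delta markers summed to 23.4 and 24.6 CPM, innate-like ones to 18.6 and 24.6 and CD4 ones to 131 and 132. For these other T cell kinds the injured members thus lay above all kept barcodes and the control members below. Markers of type 2 innate lymphoid cells (869 and 89.4 CPM), B cells (616 and 2958) and dendritic cells (5356 and 5703) were higher over all kept barcodes. Endothelial markers summed to 87.0 and 94.5 CPM and epithelial ones to 504 and 1150 CPM. Scgb1a1, made by airway secretory cells, had a UMI in 45 of 47 and 107 of 108 cells, and whether these came from free RNA was not tested.

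A few cells carried myeloid RNA. Natural killer markers summed to 381 and 241 CPM, macrophage markers to 2495 and 1286 CPM and neutrophil markers to 431 and 215 CPM in the injured and control CD8 T cells. Most of it sat in 2 injured and 3 control cells with 94 to 575 and 145 to 545 UMIs of Lyz2, Chil3, S100a8, S100a9, Tyrobp and Fcer1g, whereas the next cell had 9 and 6. Without these 5 cells natural killer markers summed to 48.6 and 62.5 CPM, macrophage markers to 462 and 340 CPM and neutrophil markers to 48.6 and 32.7 CPM. Results that lost their call or turned without these cells are given with both values.

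Of 2346 kept barcodes in the injured library 47 were CD8 T cells, a share of 2.0% (exact binomial 95% interval 1.48% to 2.66%), and of 2342 in the control library 108 were, 4.61% (3.80% to 5.54%). A share depends on how many other cells survived digestion and was read as a description. Conventional CD4 T cells, found by the same rule with Cd4 in place of Cd8, numbered 33 and 89. CD8 T cells made up 58.75% of both T cell kinds in the injured (47 of 80; 47.2% to 69.6%) and 54.8% in the control library (108 of 197; 47.6% to 61.9%), so the intervals of this ratio overlapped.

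The rule had few borderline cells. Exactly 1 Cd8 UMI was the only support in 1 injured and 6 control members, and exactly 2 of the 4 receptor complex genes in 4 and 6. Just outside it lay 1 injured and 8 control barcodes with UMIs of both Cd8 and Cd4, and 2 and 0 with 1 receptor complex gene. With 0 receptor complex genes there were 8 and 13, none with Lef1 or Dapl1. A larger group, 66 injured and 71 control barcodes, met every T cell condition but had no Cd8 or Cd4 UMI at all. Cd8a took 39.8% of the Cd8a and Cd8b1 UMIs of the injured members (134 against 203 UMIs; 34.5% to 45.2%) and 24.6% of those of the control members (230 against 706; 21.8% to 27.5%). Both genes chose the cells, so this is given as a description.

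Naive and effector transcripts were met in the same cells. Cells were first divided by the sum of Lef1 and Dapl1 (at least 1 UMI, naive) and the sum of Ccl5, Nkg7 and Gzmk (at least 2 UMIs, effector). In the injured library 15 cells carried the naive mark alone, 5 the effector mark alone, 26 both and 1 neither. The control library gave 38, 8, 60 and 2. At the depth each cell had, cells with both marks were thus 55.3% and 55.6%. At an equal depth of 2000 UMIs per cell they were 31.9% of 47 injured and 15.5% of 103 control cells, and cells with the naive mark alone were the largest class in both libraries, 40.4% and 57.3%. Control cells of 593, 815, 1008, 1234 and 1420 UMIs were too shallow for this. All of them except the one of 1234 UMIs carried the effector mark alone at their own depth. Nkg7, which encodes a granule membrane protein, had a UMI in 37 of 47 and 94 of 108 cells.

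Lef1 or Dapl1 had a UMI in 41 of 47 injured (87.2%) and 98 of 108 control cells (90.7%). A UMI of either gene was also met in 1 of 51 and 12 of 310 B cells and in 2 of 349 and 6 of 205 Marco-positive cells. At an equal depth of 2000 UMIs per cell the shares were 72.3% of 47 and 72.8% of 103 cells, 5 control cells being too shallow. Median depths were 5199 and 6941 UMIs in the CD8 T cells, 3388 and 4506.5 in the B cells and 19638 and 18919 in the Marco-positive cells. In both libraries the naive transcripts were far more frequent in CD8 T cells than in the cells that should lack them.

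Ccl5 split the cells more sharply than Nkg7. Its count was 0 in 34 injured and 83 control cells and 1 in 1 and 9, while 4 and 5 cells had 2 to 9 UMIs and 8 and 11 cells had 10 or more, up to 160 and 323. A second division therefore used Ccl5 alone, with at least 2 UMIs as Ccl5-positive, and it was chosen after the values were seen. Ccl5 lies at chr11:83525778-83530518 on the minus strand (GRCm38). The division gave 12 of 47 injured cells (25.5%; 13.9% to 40.3%) and 16 of 108 control cells (14.8%; 8.71% to 22.9%). At 2000 UMIs per cell the shares were 19.1% (9 of 47) and 9.71% (10 of 103), and the intervals of the libraries overlapped at both depths. Control cells of 593, 815, 1008 and 1420 UMIs, with 14, 32, 32 and 62 Ccl5 UMIs, were too shallow to enter the second share. All 47 injured cells were deep enough, so only the control share lost Ccl5-positive cells in this way. B cells reached 2 Ccl5 UMIs in 0 of 51 (a count of 0 allows up to 6.98% by the exact interval) and 2 of 310 cells, CD4 T cells in 4 of 33 and 1 of 89, and natural killer cells in 11 of 12 and 74 of 79.

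**Figure D1:**
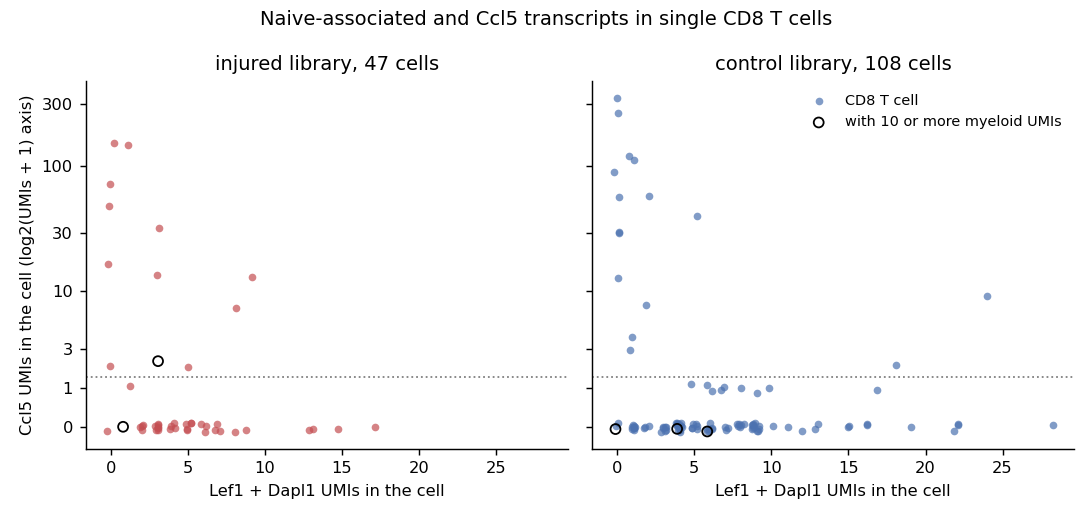
Each point is 1 CD8 T cell, in the injured (left) and control (right) library. The horizontal axis gives the UMIs of Lef1 and Dapl1 and the vertical axis those of Ccl5 on a log2(UMIs + 1) scale, points are jittered, the dotted line separates 1 from 2 Ccl5 UMIs, and open rings mark the cells with 10 or more myeloid UMIs. Most cells form a dense band at 0 Ccl5 UMIs, and most of these carry Lef1 or Dapl1. The 12 injured and 16 control cells above the line reach up to 160 and 323 Ccl5 UMIs, but some lie close to the line. Many of them carry naive transcripts as well, with a Lef1 UMI in 6 of the 12 and 8 of the 16.

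Ccl5-positive cells differed from the other CD8 T cells in naive and effector genes in both libraries. Among genes with at least 20 UMIs over the sums compared, a gene passed the fold when its ratio reached 1.5 either way with 10 CPM added to both sides. Among 1974 genes of the injured library 16.9% were higher and 16.8% lower past the fold in Ccl5-positive cells, and among 3937 of the control library 14.8% and 19.8%. Against this background, 5 of 6 tested genes of a list of effector and cytotoxic genes were higher in injured cells, as were 9 of 11 in control cells, and none was lower. Their median log2 ratios were 1.58 and 1.05, with medians of 0.01 and -0.02 over all genes.

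The naive list behaved the other way. In the injured library 5 of 14 tested members were lower past the fold in Ccl5-positive cells and none was higher (median log2 ratio -0.55), and without the myeloid-carrying cells 8 were. In the control library 11 of 15 were lower and none higher (median -0.79). Igfbp4, a growth factor binding protein of naive T cells, had 30.2 CPM in Ccl5-positive and 463 CPM in the other injured cells (2 and 97 UMIs), and 29.8 and 137 CPM in the control cells (3 and 86 UMIs). The ratio was 15.3-fold (4.12 to 128) in the injured and 4.59-fold (1.52 to 22.7) in the control library.

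Ccr7, the receptor that draws cells into lymph nodes, had 198 CPM in Ccl5-positive and 716 CPM in other control cells, 3.61-fold lower (2.31 to 5.97). In the injured library it had 348 and 515 CPM, which did not pass the fold. Bach2, Actn1 and Ramp1 also passed the fold downward in both libraries, and S1pr1, Satb1 and Foxp1 passed in the control and not in the injured library, a difference that was not tested. Il7r, the interleukin 7 receptor, did not pass in either library (847 against 825 CPM and 595 against 883 CPM).

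Among the genes higher in both libraries Ctla2a stood first, with 469 against 28.6 CPM in the injured and 298 against 15.9 CPM in the control library. It encodes a cysteine protease inhibitor of activated T cells, and its ratios were 16.4 (6.73 to 48.0) and 18.7 (8.92 to 43.0). UMIs came from 6 of 12 Ccl5-positive and 2 of 35 other injured cells, and from 10 of 16 and 9 of 92 control cells. Il2rb, the interleukin 2 and 15 receptor chain, was 5.97-fold (3.22 to 11.5) and 7.72-fold (4.79 to 12.5) higher. Both genes were thus well above the other cells in each library.

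Nkg7 was not used in this division and was 2.92-fold (2.12 to 4.0) and 4.90-fold (4.01 to 5.97) higher in Ccl5-positive cells. The other cells still held 415 and 369 CPM of it, against 66.1 and 11.4 CPM in CD4 T cells, so its presence in CD8 T cells did not depend on Ccl5. Hopx was 5.15-fold and 8.43-fold higher, and the integrin genes Itgb1 (3.75-fold and 7.58-fold) and Itgb2 (2.11-fold and 4.77-fold) passed as well. In the injured library Itgb1 had 13 and 6 UMIs without the myeloid-carrying cells, under the minimum for a call. Ly6c2, a surface protein of memory CD8 T cells, was higher in both, at 302 against 167 CPM in the injured (1.81-fold, 0.991 to 3.23) and 1359 against 251 CPM in the control library (5.42-fold, 4.28 to 6.85).

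Id2 (chr12:25093799-25097140, minus strand), an inhibitor of DNA-binding factors needed for effector differentiation, had 817 CPM in Ccl5-positive and 210 CPM in the other injured cells, a ratio of 3.89 (2.56 to 5.93). In the control library it had 218 and 129 CPM, a ratio of 1.70 (1.01 to 2.75). The rule for naming genes, the 15 largest mean log2 ratios among those past the fold the same way in both libraries, also gave Tnfaip3, Commd3, Lyst, Malt1, Cdk6, Arap2 and Prr13. Tnfaip3 and Malt1 act in NF-kappaB signalling. Without the myeloid-carrying cells Tnfaip3 lost its control call (log2 ratio 0.56), and Prr13 and Arfgef1, named next, fell under the UMI minimum in the injured library. In all 57 genes were eligible upward and 59 downward.

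The genes named downward were Igfbp4, Trib2, Il21r, Pecam1, Klf7, Tspan32, Ccnt2, Arfgef1, Cited2, Nup153, Cflar, Bcl9l, Pik3ip1, Sesn3 and Rp9. Trib2 had 0 UMIs in control Ccl5-positive cells against 40 in the others, at least 2.13-fold lower when 3 counts are allowed in the class. Il21r, the interleukin 21 receptor, had 0 against 21 UMIs in the injured library, at least 2.21-fold lower on the same floor. Klf7 was 2.78-fold (1.10 to 8.97) and 9.93-fold (1.72 to 398) lower, and its wide control interval comes from a single UMI in the Ccl5-positive cells.

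**Figure D2:**
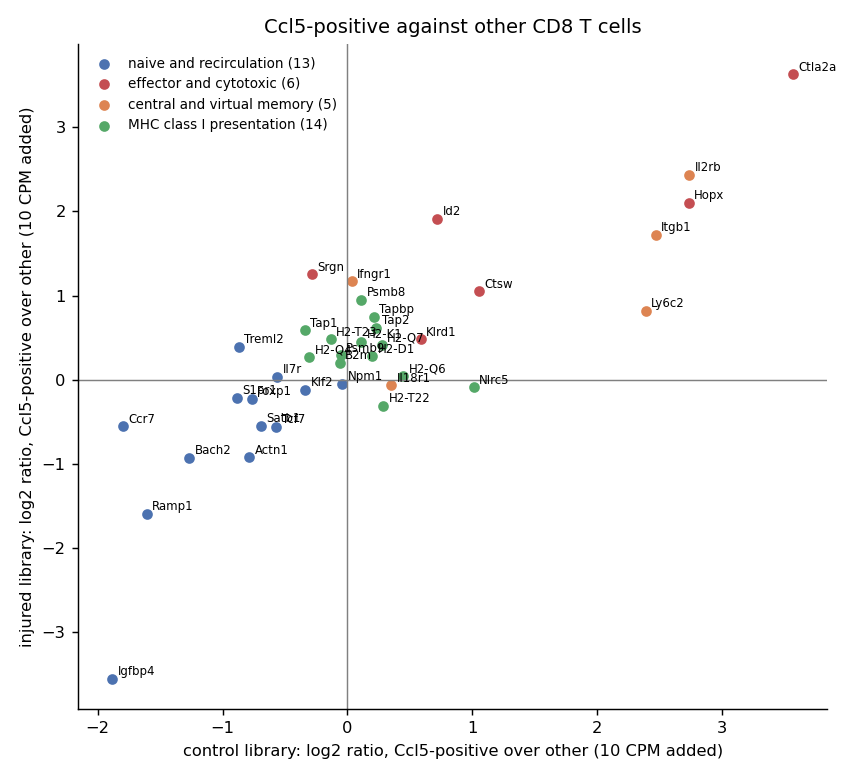
Each point is a gene of 4 lists tested in both libraries, with the log2 ratio of Ccl5-positive over other CD8 T cells in the control library on the horizontal axis and in the injured library on the vertical axis. Points of the 6 effector and 5 memory genes lie mostly up and to the right, and those of the naive genes mostly down and to the left. The 14 MHC class I genes lie around 0, some of them past the fold upward and none downward.

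Granule genes were thin even in the Ccl5-positive cells. Gzma, a granzyme, had 8 UMIs in Ccl5-positive injured cells, all from 1 cell, and 43 UMIs from 7 of 16 control cells, against 1 and 4 UMIs in the other cells. In natural killer cells it stood at 6010 and 14237 CPM, whereas Ccl5-positive CD8 T cells had 121 and 427 CPM. Gzmk UMIs came from 5 of 12 injured (10 UMIs) and 1 of 16 control Ccl5-positive cells (1 UMI), and from 0 other cells in either library. Gzmm had 3 and 9 UMIs, Fasl 6 and 10, and the interferon gamma gene Ifng 1 in each library, so these genes were close to the limit of detection.

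Zeb2, a transcription factor of terminal effector cells, had 5 UMIs in 2 of 12 injured and 33 UMIs in 6 of 16 control Ccl5-positive cells, 4.33-fold lower in the injured (1.68 to 14.2). Over all CD8 T cells it had 19 and 40 UMIs (68.9 and 54.8 CPM) and did not pass, and without the myeloid-carrying cells 7 and 34 UMIs, which passed downward with an interval that took in 1. Tbx21, which encodes T-bet, had 1 and 12 UMIs and a UMI in 1 and 6 of these cells, and none in other CD8 T cells. Klrg1 had a UMI in 1 and 2 cells, and both genes were under the UMI minimum for a call. The receptor Cx3cr1 is taken up below, since most of its UMIs came from 1 cell.

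The first division gave a smaller effector class. The 5 injured and 8 control effector-marked cells were shallow, with medians of 3393 and 1906.5 UMIs against 4736 and 5896 in naive-marked cells. Among 761 genes tested in the injured library 22.3% were higher and 29.7% lower past the fold in effector-marked cells, and among 1398 in the control library 28.6% and 30.7%. Of the calls in the injured library 42.9% were upward, or 58.1% under the median scaling described below, and in the control library 48.3% or 54.3%, so which direction held more calls turned with the scaling in both. All 12 tested naive-list genes were lower in the injured library, as were 9 of 12 in the control library, where 1 was higher. Ccr7 had 0 UMIs in effector-marked against 49 in naive-marked injured cells (at least 2.78-fold lower) and 2 against 178 in control cells, and Satb1, a chromatin organiser of naive cells, had 1 against 78 and 1 against 172.

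In the same comparison Id2 was 16.4-fold (8.70 to 32.7) and 4.94-fold (2.17 to 10.6) higher in effector-marked cells. MHC class I genes were also higher: 8 of 10 and 8 of 13 tested members were higher and none lower, for example H2-Q7 at 1390 against 591 CPM and 1903 against 803 CPM. Also named upward in both libraries were the signalling genes Lck and Fyn, Prkch, Gimap4, Cd52, Tap1, Sub1, Prrc2b, Ptbp3, Arpc5, Gdi2, Sept1 and Ndufa7. Downward came Actn1, Snhg8, Il6ra, Klf7, Dgka, Lsm4, Ptpn1, Il17ra, Evl, Hnrnpd, Cflar and Il7r, among 44 and 50 eligible genes. With Ccl5 as the divider the MHC class I list was milder, 4 of 14 higher in injured cells (2 without the myeloid-carrying cells) and 1 of 14 in control cells, with none lower.

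**Figure D3:**
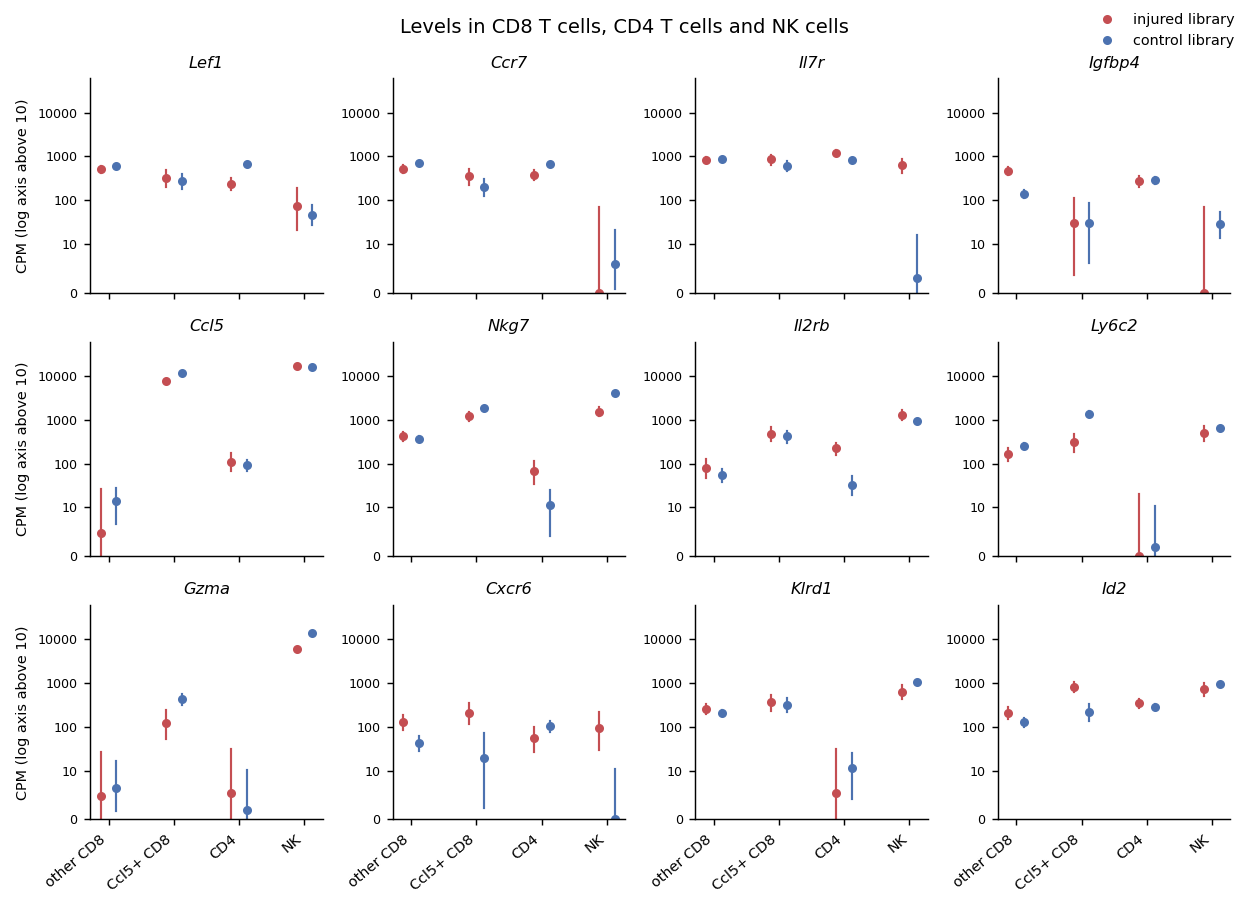
Levels in CPM with exact 95% Poisson intervals of 12 genes in other CD8, Ccl5-positive CD8, conventional CD4 and natural killer cells, with the injured and the control library in separate colours and a log axis above 10 CPM. Ccl5-positive cells sit between the other CD8 T cells and natural killer cells for Nkg7, Gzma and Il2rb, while Gzma in natural killer cells, at 6010 and 14237 CPM, is far above any T cell.

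The injured and control libraries were then compared over all CD8 T cells. Of 5207 genes tested 23.7% were higher and 6.66% lower past the fold in the injured library, so 78.1% of the calls were upward; scaled by the median ratio of the well-covered genes that share was 63.4%. The median log2 ratio over all genes was 0.21 and fell to 0.08 under that scaling, so list medians are given beside 0.21. The upward excess therefore depends in part on scaling. Upward counts of the lists below are read against a background of 23.7%, and downward counts against 6.66%.

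Of the 16 gene lists, that of interferon-response genes had the most members lower in the injured library by count. A larger share was lower in the smaller heat shock list, described below. Of 28 tested members 13 were lower past the fold and 1, Slfn8, was higher, with a median log2 ratio of -0.54 against 0.21 over all genes. Without the 5 myeloid-carrying cells 10 were lower and 2 higher (median -0.40), and scaled by the median ratio 16 were lower and 1 higher. These genes are induced by type I interferon through factors that bind repeats of the letters GAAA.

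Ifi27l2a (chr12:103442167-103443680, minus strand), an interferon-induced mitochondrial protein gene, had 102 CPM in injured and 549 CPM in control CD8 T cells (28 and 401 UMIs), 5.41-fold lower (3.68 to 8.24). UMIs were found in 13 of 47 injured cells, with at most 6 in any cell, and in 79 of 108 control cells, with up to 85. The gene was lower in 30.2 against 526 CPM in Ccl5-positive cells, where UMIs came from 1 of 12 injured and 10 of 16 control cells. It was also lower at 124 against 553 CPM in the other cells and at 118 against 524 CPM in naive-marked cells. Its level was thus lower in each of these classes, while effector-marked cells and cells with both marks are not given here.

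Rtp4 (3 and 36 UMIs, 4.53-fold lower, 1.43 to 23) and Slfn5 (3 and 33 UMIs, 4.15-fold, 1.30 to 21.2) followed, and both kept the call without the myeloid-carrying cells at 26 and 17 control UMIs. Isg15, a ubiquitin-like protein gene, had 6 and 51 UMIs (3.21-fold lower, 1.38 to 9.15), but without the myeloid-carrying cells it had 6 and 28 UMIs and did not pass (log2 ratio -0.54). A single Ccl5-positive control cell held 19 of them. Ifit1, Ifi203 and Phf11b lost their calls in the same way, while Ifit3, Irf7, Bst2, Ifi209, Ifi213 and Ifi47 kept theirs. Samhd1 (413 and 335 CPM) and Trim30a (90.7 and 90.4 CPM) did not pass the fold either way, so the list did not move as one. Ifi203, Ifi209 and Ifi213 are similar copies of 1 family, and the counting of shared reads could bear on each.

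The 13 genes were lower in other cells too. Conventional CD4 T cells had 8 of 10 tested of them lower past the fold (background 9.56% of genes), B cells 11 of 12 (background 14.3%) and all other kept barcodes together 13 of 13 (background 5.03%). Ifi27l2a had 193 and 571 CPM in CD4 T cells, 95.2 and 854 CPM in B cells and 63.4 and 587 CPM over all other barcodes. The lower level was therefore not particular to CD8 T cells, and the part of free RNA in it was not tested.

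Promoter sequences are shown for 3 of the interferon-response genes that kept their call. These genes were picked because they carry the letters that the list's factors are known to read. Each line is the 250 bases before the RefSeq transcript start (GRCm38.p6, transcribed strand, 5′ to 3′): Bst2 on the minus strand at chr8:71537473-71537722, Ifit3 on the plus strand at chr19:34583279-34583528 and Slfn5 on the plus strand at chr11:82951852-82952101. Capitals mark matches to GAAANNGAAA, the core of the element these factors bind, on either strand, so a match on the opposite strand reads TTTCNNTTTC.
Bst2: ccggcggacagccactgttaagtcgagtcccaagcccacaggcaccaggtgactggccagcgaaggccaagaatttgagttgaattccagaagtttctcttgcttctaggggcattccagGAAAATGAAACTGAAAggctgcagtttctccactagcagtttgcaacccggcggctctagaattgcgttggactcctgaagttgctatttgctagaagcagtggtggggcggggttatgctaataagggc
Ifit3: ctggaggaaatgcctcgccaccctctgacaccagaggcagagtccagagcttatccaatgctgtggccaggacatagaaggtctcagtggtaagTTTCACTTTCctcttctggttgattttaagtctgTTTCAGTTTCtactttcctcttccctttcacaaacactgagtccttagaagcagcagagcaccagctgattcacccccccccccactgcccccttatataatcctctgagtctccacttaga
Slfn5: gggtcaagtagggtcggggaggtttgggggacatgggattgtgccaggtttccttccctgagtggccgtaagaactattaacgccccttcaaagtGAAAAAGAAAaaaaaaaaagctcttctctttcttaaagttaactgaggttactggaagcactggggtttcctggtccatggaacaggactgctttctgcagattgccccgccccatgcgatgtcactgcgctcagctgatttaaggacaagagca

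Bst2 encodes tetherin, which holds budding virus at the cell surface, and had 65.3 and 108 CPM (18 and 79 UMIs). Its 2 matches overlap. Ifit3, an RNA-binding antiviral protein gene, had 3 and 24 UMIs and holds 2 matches on the opposite strand, and Slfn5 holds 1. Windows from 250 bases before to 50 after the start were found for 24 of the 30 list members, and 15 of these (62.5%) had a match, against 1079 of 27025 genes (3.99%). Among members lower past the fold 8 of 11 with a window (72.7%) had one, and among tested members not lower 7 of 12 (58.3%), shares that rest on few windows. Of the lower members with a match, Isg15, Ifit1, Ifi203 and Phf11b lost their call without the myeloid-carrying cells. Irf7, Ifi47 and Ifi209 kept their call and had no match. A match is a description of letters and not of binding.

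Heat shock genes were lower as well. Of 8 tested members 4 were lower past the fold and 1, the mitochondrial chaperonin Hspd1, was higher (1.70-fold, 1.12 to 2.55), with a median of -0.58; under median scaling Hspd1 did not pass. Hsph1 had 14.5 and 61.6 CPM (4 and 45 UMIs), 4.25-fold lower (1.55 to 16.3). Dnaja1, a cochaperone, had 163 and 356 CPM (2.18-fold lower, 1.58 to 3.06), and the constitutive chaperone Hspa8 834 and 1440 CPM (1.73-fold, 1.5 to 2.0). Of these 4 genes 3 were also lower past the fold in CD4 T cells and 3 in B cells. Over all other kept barcodes 2 were, Hsph1 and Dnaja1, while Hspa8 and Hspe1 had log2 ratios of -0.45 and -0.40 and did not pass.

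MHC class I genes were lower in 3 of 14 cases and higher in none (median -0.19). H2-D1 had 1073 and 1668 CPM (1.55-fold lower, 1.37 to 1.77), and H2-T23 and the immunoproteasome gene Psmb8 passed as well. Without the myeloid-carrying cells only H2-T23 was still lower and Tap1 was higher. H2-K1 (1900 and 2264 CPM) and B2m (1309 and 1525 CPM) did not pass the fold, and the H2 genes are similar copies that can share reads.

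**Figure D4:**
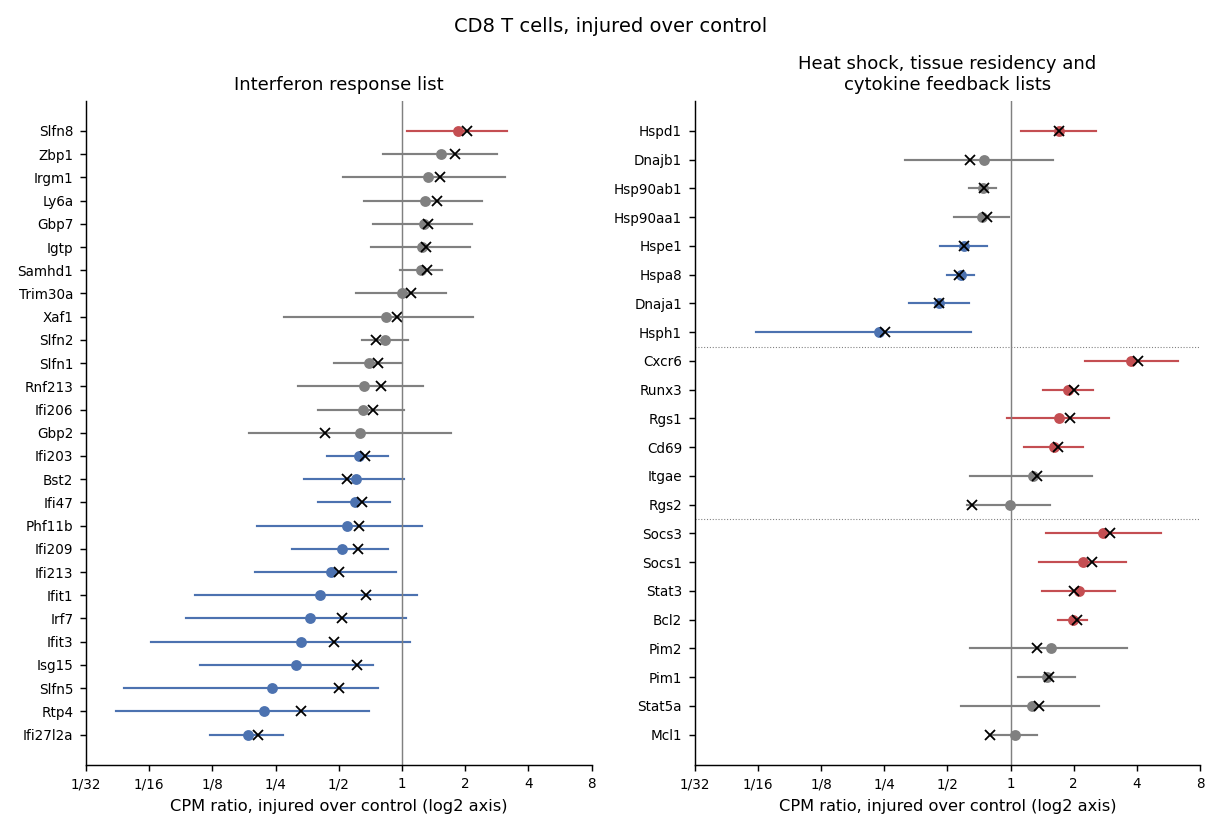
CPM ratio of the injured over the control library, on a log axis with exact 95% intervals, for tested members of the interferon-response list and of the heat shock, residency and cytokine feedback lists. Red is higher and blue lower past the fold, grey did not pass, and crosses give the ratio without the 5 myeloid-carrying cells. The 13 blue interferon genes and 4 blue heat shock genes contrast with the residency and feedback lists, where no gene is blue.

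T cell receptor components were lower in 4 of 20 cases and higher in 1 (median -0.20). The beta chain constant regions were the lowest: Trbc2 had 765 and 1603 CPM (2.10-fold lower, 1.81 to 2.44) and Trbc1 529 and 864 CPM (1.63-fold, 1.36 to 1.97). These 2 genes are near-identical copies, so reads could be split between them. The costimulatory genes Cd28 (167 and 271 CPM) and Cd2 (207 and 329 CPM) were lower, and the adaptor gene Sh2d2a was higher (105 and 52.0 CPM). Lck, Zap70, Lat, Cd247 and Ptprc did not pass the fold. Of the 4 lower genes 2 were also lower past the fold in CD4 T cells, where 9.56% of genes were. They were Trbc2 (970 and 1593 CPM) and Cd28 (380 and 612 CPM), while Trbc1 and Cd2 did not pass there.

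Tissue residency genes lay on the other side, with 5 of 7 tested members higher in the injured library and none lower (median 0.66, or 0.82 without the myeloid-carrying cells; 3 higher under median scaling). Cxcr6 (chr9:123806475-123811760, plus strand), the receptor for Cxcl16, had 149 and 39.7 CPM (41 and 29 UMIs), 3.74-fold higher (2.27 to 6.25), with a UMI in 16 of 47 and 17 of 108 cells and up to 9 in 1 cell of each library. B cells and Marco-positive cells had no Cxcr6 UMI in either library. At 2000 UMIs per cell 8 of 47 injured (17.0%) and 7 of 103 control CD8 T cells (6.80%) had one. The difference kept its direction at equal depth, but it rests on few cells and was not tested.

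Runx3, the factor that fixes CD8 identity and residency programmes, had 341 and 181 CPM (1.89-fold higher, 1.43 to 2.48). Cd69, which holds cells in tissue, had 236 and 147 CPM (1.61-fold, 1.16 to 2.21), and Rgs1 passed with an interval that took in 1 (1.69-fold, 0.957 to 2.93). Itgae, the integrin chain of epithelium-bound cells, had 15 and 31 UMIs and did not pass. Conventional CD4 T cells had 2 of 4 tested members of these 5 higher and 1, Cxcr6, lower at 55.1 against 104 CPM (10 and 55 UMIs), where 26.3% of genes were higher. Without the 1 myeloid-carrying cell among the control CD4 T cells, Cxcr6 had 10 and 38 UMIs there and did not pass.

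Within the divisions Cxcr6 was spread over both. Ccl5-positive cells had 14 and 2 UMIs and the other cells 27 and 27, so 212 and 19.8 CPM against 129 and 42.9 CPM. Rgs1 in the injured library sat in Ccl5-positive cells (272 against 23.9 CPM, 11.4-fold, 4.08 to 39.3), and in the control library it was even (49.6 against 49.2 CPM). Itgae had 0 UMIs in control Ccl5-positive cells against 31 in the others. Residency genes thus did not come as a set in one division.

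Memory genes were higher in 6 of 9 cases and lower in 1 (median 0.72; 5 higher and 1 lower without the myeloid-carrying cells). Il2rb had 178 and 104 CPM (1.71-fold higher, 1.17 to 2.48), Il18r1 94.3 and 46.6 CPM and Eomes 13 and 14 UMIs (2.46-fold, 1.06 to 5.64). Cd44 passed with all cells (19 and 28 UMIs) and not without the myeloid-carrying cells (10 and 18 UMIs). Ly6c2 was the exception at 199 and 404 CPM, 2.03-fold lower (1.51 to 2.75). In Ccl5-positive cells it had 302 and 1359 CPM, 4.49-fold lower (2.80 to 7.59), with a UMI in 5 of 12 and 14 of 16 cells. In CD4 T cells 4 of 4 tested of the 6 higher genes were higher too. Ly6c2 was also lower in B cells (0 and 100 UMIs) and over all other kept barcodes (23.6 and 204 CPM). In CD4 T cells it had 0 and 1 UMIs, and the part of free RNA in its level was not tested.

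Cytokine feedback genes were higher in 4 of 8 cases and lower in none (median 0.76). Bcl2, the survival factor sustained by interleukin 7 and 15, had 972 and 491 CPM (1.98-fold, 1.68 to 2.32) and a UMI in 44 of 47 and 82 of 108 cells. Socs1 had 127 and 57.5 CPM (2.21-fold, 1.37 to 3.54), Socs3 83.4 and 30.1 CPM (2.77-fold, 1.48 to 5.21) and Stat3 174 and 82.1 CPM (2.12-fold, 1.42 to 3.15). All 4 passed under median scaling and without the myeloid-carrying cells, and all 4 were higher in CD4 T cells, for example Socs3 at 248 against 37.9 CPM. Socs3 and Stat3 were also higher in B cells (104 against 13.3 and 199 against 69.6 CPM). Over all other kept barcodes they were higher too (157 against 77.0 and 248 against 129 CPM). Bcl2 passed in neither, and Socs1 was under the UMI minimum in B cells and did not pass over all other barcodes. Of the receptors upstream, Il6ra, Il6st, Tgfbr2, Il18r1 and Il2rb were higher and Il27ra was lower among 13 tested, and Il7r, at 830 and 843 CPM, did not pass.

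Naive genes were higher in 4 of 16 cases and lower in 2 (median -0.02). Of all 5207 genes 23.7% were higher and 6.66% lower, so the upward share of this list was near that of all genes. Igfbp4 (chr11:99041244-99054392, plus strand) stood highest at 359 and 122 CPM (99 and 89 UMIs; 2.95-fold, 2.19 to 3.97), with a UMI in 23 of 47 and 38 of 108 cells. The same gene had 270 and 283 CPM in CD4 T cells, which did not pass. Tcf7 had 519 and 327 CPM (1.58-fold higher), Ramp1 and Treml2 were also higher, and Npm1 (729 and 1161 CPM) and Sox4 were lower. Under median scaling 2 were higher and 3 lower, and Ccr7, S1pr1, Klf2, Il7r and Satb1 did not pass in either direction with all cells.

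Effector genes were higher in 2 of 11 cases, Id2 (355 and 141 CPM, 2.52-fold, 1.89 to 3.36) and Ctla2a (134 and 54.8 CPM, 2.45-fold, 1.52 to 3.93). They were lower in 3, Gzma, Prf1 and Cx3cr1, where the intervals of Gzma (0.955 to 4.58) and Prf1 (0.774 to 4.77) took in 1. Of all 5207 genes 23.7% were higher and 6.66% lower. Over all other kept barcodes Id2 was also higher (488 and 166 CPM), while Ctla2a did not pass (115 and 142 CPM). Gzma (32.8 and 389 CPM), Prf1 (4.26 and 46.8 CPM) and Cx3cr1 (15.8 and 46.1 CPM) were lower there too. In B cells Id2 was higher (68.0 and 29.7 CPM), and in CD4 T cells it did not pass. Cx3cr1, a receptor of patrolling effector cells and monocytes, had 2 and 69 UMIs. Of the 69 control UMIs 55 came from 1 cell, and without the myeloid-carrying cells the counts were 2 and 14, under the UMI minimum for a call.

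Activation genes were divided, 3 higher and 3 lower of 13, where 23.7% of all genes were higher and 6.66% lower. The upward share was thus near that of all genes. Dusp2, a nuclear phosphatase, had 210 and 58.9 CPM (3.57-fold higher, 2.37 to 5.43), Myc 20 and 7 UMIs (7.57-fold, 3.07 to 21.2) and Zfp36 24 and 20 UMIs (3.18-fold, 1.68 to 6.07). Jund had 384 and 786 CPM (2.04-fold lower, 1.66 to 2.54), Jun 12 and 77 UMIs (2.42-fold, 1.31 to 4.89) and Ppp1r15a passed downward. Fos, Junb, Ier2, Dusp1 and Nfkbia did not pass. Immediate early genes therefore had no common direction here.

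Of the trafficking list 7 of 18 were higher and 1, S1pr4, lower; without the myeloid-carrying cells 4 of 17 were higher and 2 lower. Cxcr4, which retains cells near Cxcl12, had 178 and 69.8 CPM (2.54-fold, 1.68 to 3.84), and Ccr2 passed with all cells (20 and 26 UMIs) but had 8 and 8 UMIs without them. Mki67, expressed in dividing cells, had 0 UMIs in injured and 1 in control cells. Of 6 tested cell cycle genes Stmn1 and Mcm6 were higher and Hmgb2 lower, and Stmn1 fell under the UMI minimum without the myeloid-carrying cells. Of the glycolysis list Txnip and Pdk1 were higher among 10 tested (Txnip 936 and 515 CPM), and of the apoptosis list Bcl2, Bcl2l11 and Bcl2a1b were higher and Gimap7 lower among 14. The upward shares of the glycolysis and apoptosis lists were near the 23.7% of all genes. Of the checkpoint genes only Tox and Icos reached 20 UMIs and neither passed, and Pdcd1 had a UMI in 4 injured, all Ccl5-positive, and 1 control cell.

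Beyond the genes already described, the largest upward ratios were those of Leng8 (174 and 32.9 CPM, 5.30-fold, 3.18 to 9.04), Nin, Mllt6, Hdac7, Sbno2, Herc4, Cdk6 and Cpsf7, with 3.14-fold to 3.62-fold for the last 7. Hdac7, a deacetylase of developing T cells, had a UMI in 27 of 47 and 31 of 108 cells. Downward came Tnfaip8l2, a negative regulator of immune activation (18.1 and 103 CPM, 5.66-fold lower, 2.32 to 17.9), Ifi27 (25.4 and 129 CPM, 5.07-fold), Ms4a4c, Tagln2 (185 and 453 CPM, 2.45-fold), Eif2s1, Coa3, Med28 and Hmgb2, the last a member of the cell cycle list. Tnfaip8l2 had a UMI in 4 of 47 and 50 of 108 cells, and Ifi27 in 6 and 64. Leng8 was also higher in CD4 T cells (127 and 60.7 CPM), so that difference was not limited to CD8 T cells.

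**Figure D5:**
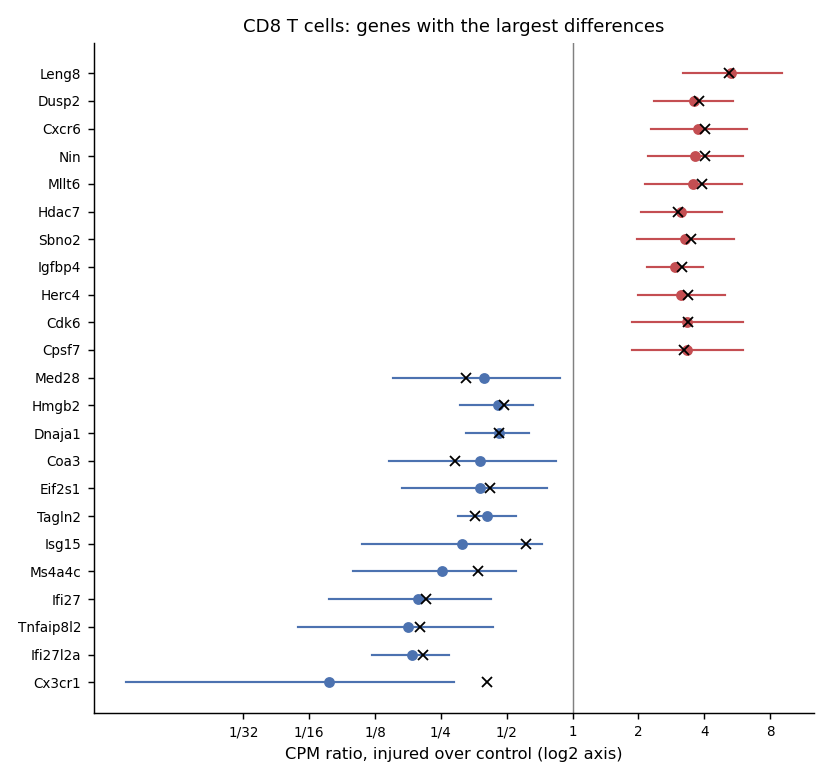
CPM ratio of the injured over the control library for the highest and lowest named genes over all CD8 T cells, on a log axis with exact 95% intervals; crosses give the ratio without the 5 myeloid-carrying cells. The crosses of Cx3cr1 and Isg15 lie farthest from their points, toward 1, and both lose their call.

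Within Ccl5-positive cells, 22.8% of 1029 genes were higher and 15.3% lower in the injured library, and 59.9% of calls were upward (73.5% under median scaling). Dusp2 had 393 and 59.5 CPM (6.61-fold, 2.66 to 19.6) and Id2 817 and 218 CPM (3.74-fold, 2.24 to 6.45), followed by Lnpep, Zfp36l2, Txnip and Ubl3. Ifi27l2a, Tagln2, Ly6c2, Fkbp3, Zeb2 and Cd48 were the lowest. All 5 tested heat shock genes were lower (3 without the myeloid-carrying cells and 2 under median scaling), 4 of 8 interferon genes were lower and none higher, and 4 of 5 feedback genes were higher. The heat shock, interferon and feedback lists thus kept the directions seen over all CD8 T cells, from 12 and 16 cells. The other lists are not given for these cells.

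Within the other CD8 T cells 22% of 4589 genes were higher and 8.72% lower, and 71.6% of calls were upward (60.3% under median scaling). Leng8, Hdac7, Runx1, Igfbp4, Zfp281 and Clcn3 were highest, and Runx1 had 32 UMIs in injured cells with the myeloid-carrying cells and 12 without. Igfbp4 had 463 and 137 CPM (3.39-fold, 2.51 to 4.58). Cx3cr1, Tnfaip8l2, Ifi27, Ifi27l2a, Ms4a4c and Eif2s1 were lowest. Cx3cr1 had 0 and 56 UMIs in these cells, 55 of them in 1 control cell, and 0 and 1 without the myeloid-carrying cells, where the other 5 kept their call. Of 26 interferon genes 11 were lower and 2 higher, of 8 heat shock genes 4 were lower and 1 higher, and of 7 feedback genes 4 were higher.

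In the naive-marked cells (15 and 38) 22.2% of 2042 genes were higher and 15.1% lower, and 59.5% of calls were upward (69.9% under median scaling). Each class held 1 myeloid-carrying cell, and without these 2 cells 18.3% of 1750 genes were higher and 15.8% lower, and the median log2 ratio went from 0.05 to -0.02. Dbi, Ciao2a, Runx1, Igfbp4 (374 and 80.3 CPM, 4.66-fold, 2.57 to 8.80), Zfp281 and Lmo4 were highest with all cells. The injured myeloid-carrying cell held most UMIs of the first 3: without it Dbi fell from 37 to 6 UMIs, Ciao2a from 29 to 3 and Runx1 from 27 to 7, and all 3 came under the UMI minimum. Igfbp4, Zfp281 and Lmo4 kept their call. Retnlg, a neutrophil gene, Dusp10, Slfn1, Ifi27l2a, S1pr4 and Rdx were lowest. Retnlg had 0 and 40 UMIs with the myeloid-carrying cells and 0 and 1 without, and the other 5 kept their call. In the effector-marked cells (5 and 8) 14.2% of 225 genes were higher and 25.8% lower. Id2 had 2259 and 537 CPM and Btg1, Shisa5, Mbnl1, Eif1 and Fau were higher, while Gzma had 0 and 42 UMIs (at least 11.8-fold lower with 3 counts allowed in the class), and Klf2, Lgals1, Actg1, S100a10 and Cyba were lower. With 5 and 8 cells, single cells weigh heavily on these values.

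Against conventional CD4 T cells of the same library, CD8 T cells stood out by cytotoxic lineage genes. Among genes tested in the injured library 9.81% of 3437 genes were higher and 16.9% lower in CD8 T cells, and in the control library 5.92% and 8.98% of 5656, where 39.7% of calls were upward (50.1% under median scaling). Past the fold the same way in both libraries, 40 genes were eligible upward and 77 downward. Ccl5 was 16.6-fold (10.6 to 27.4) and 17.3-fold (13.0 to 23.6) higher, and Nkg7 9.16-fold (5.11 to 18.1) and 49.8-fold (22.7 to 137).

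Ly6c2 had 55 UMIs in CD8 and 0 in CD4 T cells of the injured library (at least 12.1-fold higher with 3 counts allowed in the class) and 295 and 1 in the control library. Klrd1, the CD94 chain of the NKG2 receptors, had 283 against 5.51 CPM and 223 against 11.4 CPM. Runx3 was 3.26-fold (1.97 to 5.65) and 3.53-fold (2.32 to 5.56) higher, and Ctsw, the gut-homing receptor Ccr9, Fam241a, Ap1ar and Sidt1 completed the upward genes. Among these T cells Klrd1 and Ly6c2 were thus close to 0 outside the CD8 cells.

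Lower in CD8 than in CD4 T cells of both libraries were Ly6c1, Tmem64, Ckb, Maf, Tmem176a, Ctla4, Trat1, Ly6a, Smco4 and Atp2a2. Ly6c1 mirrored Ly6c2, with 0 against 27 UMIs in the injured (at least 13.7-fold lower) and 1 against 48 in the control library. These genes are near-identical neighbours in sequence, so the counting of shared reads could bear on both. Ctla4, an inhibitory receptor, had 14.5 against 138 CPM and 9.58 against 58.8 CPM, although Foxp3-positive cells had been left out.

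Activation genes were lower in CD8 than in CD4 T cells, in 7 of 13 tested in injured cells (2 higher; median -0.89) and 9 of 15 in control cells (none higher; median -0.67), with medians of -0.07 and -0.06 over all genes. Checkpoint genes were lower in 3 of 3 and 2 of 3 cases. Effector genes were higher in 3 of 7 and 7 of 11 cases with 1 lower in each, and naive genes were mixed, 3 higher and 1 lower of 16 and 1 higher and 2 lower of 17. Lef1 or Dapl1 had a UMI in 48.5% of 33 injured and 86.5% of 89 control CD4 T cells, against 87.2% and 90.7% of CD8 T cells. Lef1 itself had 457 and 564 CPM in CD8 and 231 and 652 CPM in CD4 T cells.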

How the data were processed

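Whole-lung cell suspensions of 2 mouse libraries, 1 titled injured and 1 titled control, were measured by droplet single-cell RNA sequencing. The deposited values are UMI counts per gene and barcode, which per the file headers Cell Ranger 4.0.0 produced, on 32285 genes of GRCm38. The submitters' processing notes also list STAR 2.7.2c, featureCounts 1.6.3, DESeq2 1.26.0 and DESeq2 1.28.1 without saying what each was used for. The notes name the builds GRCm38 and mm10. Filters applied before deposit are not given in the sources used here.

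From the counts, CD8 T cells were selected as described, and their UMIs were summed per library and class and scaled to CPM. No count model was fitted, because each group was 1 library. A gene was tested when both sums held at least 20 UMIs together, and called at 1.5-fold or more after adding 10 CPM to both sides. Intervals at 95% are exact (Poisson for levels, conditional binomial for ratios, Clopper-Pearson for shares) and cover counting error only, not differences between animals. Genes at 0 were given a floor of 3 counts. Shares at equal depth used cells thinned to 2000 UMIs. Doublets were scored by simulated pairs among 40 neighbours at 0.8% per 1000 barcodes (44 barcodes in each library) and were kept in the main values.

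Genes were named by rank of the log2 ratio: 12 per direction over all CD8 T cells (at least 50 UMIs), 6 within a class, 15 for contrasts between classes and 10 against CD4 T cells, the contrasts needing the same call in both libraries. The ranking left out mitochondrial, ribosomal, haemoglobin, immunoglobulin, T cell receptor, sex-linked, unnamed and duplicate-symbol genes and the genes of the selection rule. It also left out genes whose CPM in CD8 T cells, in the library where they are higher, was under 50% of their CPM over all kept barcodes. Other genes named belong to 16 gene lists (naive, effector, memory, residency, checkpoint, T cell receptor components, activation, heat shock, interferon response, MHC class I, trafficking, cytokine receptors, cytokine feedback, cell cycle, glycolysis, apoptosis) or 12 marker lists. A few genes that these rules and lists hold are counted but not reported here by name or drawn in the plots. Members and lists were chosen with earlier results of these data known. The division by Ccl5, the removal of myeloid-carrying cells and the values in other cell types were added after the data were seen. Alternatives varied the quality limits, the scaling, the added CPM, the UMI minimum, the fold, the receptor gene number, the weight per cell, the marking limits and the doublets. Gene positions are from GENCODE M21 and promoter windows from RefSeq (GRCm38.p6), searched for the stated motif on both strands. Python 3.11.15, numpy 2.4.6, scipy 1.17.1, pandas 2.3.3 and scikit-learn 1.9.0 were used, and the ratio and call code was tested on simulated data, in which some unchanged genes also passed the fold by counting error alone, so counts of calls can include such genes.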

Additional observations from a re-analysis of the deposited data

Results flagged for a closer look

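For 10 genes a contrast passed the fold in opposite directions in the 2 libraries. Each value below is the injured minus the control log2 ratio, and none of these differences was tested.

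Between Ccl5-positive and other CD8 T cells the difference was 5.47 for S100a8, a neutrophil calcium-binding protein gene (injured log2 ratio 3.20, control -2.27). Without the myeloid-carrying cells its log2 ratios were 0.68 and 0.12, on 3 and 5 UMIs in the injured and 1 and 5 in the control library. For Txn1, thioredoxin, the difference was -1.91 (-1.13 and 0.78, or -0.10 and 0.90 without those cells). Grb2, a signalling adaptor gene, gave -2.88 (-1.83 and 1.05) and kept both directions without them (-1.70 and 1.08). Nrip1, a nuclear receptor corepressor gene, gave 3.48 (1.07 and -2.40) and Fam169b 2.32 (0.99 and -1.33), and both kept their directions without those cells.

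Between CD8 and conventional CD4 T cells the difference was 2.49 for Cxcr6 (injured 1.29, control -1.20), and 1.44 and -0.70 remained without the myeloid-carrying cells of both kinds. Thus Cxcr6 was higher in CD8 than in CD4 T cells of the injured library and lower in those of the control library. Akap9, a scaffold protein gene, gave -1.81 (-1.12 and 0.69) and Basp1 -4.82 (-3.43 and 1.38), and both kept their directions. Ifitm3, an interferon-induced membrane protein gene, gave -6.97 (-4.30 and 2.67), but its control value without those cells was 0.10. Ifi30, a lysosomal thiol reductase gene, gave 2.65 (1.87 and -0.78), and its injured value without them was -0.02.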

How the results depend on the processing

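No paired analysis was possible because each group was 1 library, and for the same reason no replicate could be left out. Counts of genes past the fold moved with the UMI minimum, the fold and the added CPM. Under median scaling the direction with more calls turned for effector-marked against naive-marked cells, from 170 higher and 226 lower to 236 and 170 in the injured and from 400 and 429 to 468 and 394 in the control library. Over all CD8 T cells, injured against control, the 1583 calls became 463 with 50 CPM added, 3445 with no UMI minimum, 600 at 50 UMIs or more and 439 at a fold of 2. In the same order of settings the naive-marked cells gave 493, 5268, 201 and 287, and the other CD8 T cells 512, 3453, 499 and 404. With no minimum, 50 UMIs and a fold of 2, the effector-marked cells gave 4913, 26 and 49 and the Ccl5-positive cells 5867, 84 and 171. Effector-marked against naive-marked gave 7636, 106 and 220 in the injured and 6676, 266 and 466 in the control library. Ccl5-positive against other cells gave, with 50 CPM added and then those 3 settings, 418, 5437, 115 and 237 in the injured and 558, 4497, 409 and 580 in the control library. CD8 against CD4 T cells gave 437, 5780, 243 and 335 in the injured and 176, 1854, 323 and 203 in the control library, where 1 CPM added gave 1367. The added CPM, minimum and fold change by construction which genes can pass. The other 91 counts, all 176 list medians and all 33 shares moved by less than the set limits, and of the values of named genes 207 did and 9 moved. With 47 and 108 cells, genes under 20 UMIs in both sums together could not be compared.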
